A study of Mus musculus with 15 samples.

Results

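The enzymes that write and erase DNA methylation were followed as 8 genes: the methyltransferases Dnmt1, Dnmt3a and Dnmt3b, the cofactors Dnmt3l and Uhrf1, and the oxidases Tet1, Tet2 and Tet3. Members were chosen by name, with earlier results of these data known. They are the rows of the count table whose Ensembl identifier carries one of these symbols, and all 8 were found among 49585 genes. Each of the 8 passed the filter on low counts and entered the tests, beside 15223 genes tested in all.

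The libraries held poly(A)-selected RNA from wild-type mouse E14 embryonic stem (ES) cells in growth factor reduced Matrigel, a basement membrane gel, with 3 libraries in each of 5 groups. All groups came from cells kept in 0.4 µM PD0325901, a MEK inhibitor, 3 µM CHIR99021, a GSK3 inhibitor, and 4 ng/ml Lif, and all were embedded at 2000 cells per µl and covered with N2B27 medium. The medium carried 2iLif, FGF2/Activin, PD032, an Aurora kinase A inhibitor labelled Aurka inh, or both inhibitors (PD032+ Aurka inh, below "the combination"). The labels do not expand PD032, also write FGF2/Activin as FAK, do not say which Aurora inhibitor was used, and state neither doses nor durations. No group in N2B27 alone is among the 15 libraries, so an inhibitor could be set only against another medium, and no test of whether the inhibitors add to each other was possible. Nothing says that replicates came from separate cultures, so p-values measure the spread between these libraries, which may be technical.

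As background, DNMT1 copies methylation onto the new strand after DNA replication, and UHRF1 brings it to hemimethylated CpG sites. DNMT3A and DNMT3B place methylation where none was, and DNMT3L, which has no catalytic activity, stimulates them. The TET enzymes oxidise 5-methylcytosine to 5-hydroxymethylcytosine and further, which opens a route to its removal. Mouse ES cells in 2iLif are known for low global methylation and low de novo methyltransferase levels, and methylation is gained as cells leave that state for the formative state that precedes lineage choice. The counts here measure RNA and hold no methylation value.

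The promoters of the de novo writers, which moved together in several comparisons, and of Tet2, which moved the other way between 2iLif and FGF2/Activin, are shown with CpG sites in capitals, because these genes start in sequence of very different CpG content. Each window is the 250 bases before a start site in RefSeq (GRCm38.p6), 5′ to 3′ on the gene's strand, and all 8 genes were matched there, several with more than 1 start. The Tet2 window held 51 CpG sites, more than 99.9% of 32851 such windows, and the only Dnmt3b window held 21. The 3 Dnmt3a windows held 38, 40 and 15, of which the first is shown, so they lay on both sides of Dnmt3b. The 3 Dnmt3l windows held 5, 4 and 3, of which the second is shown, each below the median of 6 over all windows. Gene counts do not say which of several starts was in use, so a window shown need not belong to the transcripts counted.
Dnmt3a, chr12:3806730-3806979, + strand: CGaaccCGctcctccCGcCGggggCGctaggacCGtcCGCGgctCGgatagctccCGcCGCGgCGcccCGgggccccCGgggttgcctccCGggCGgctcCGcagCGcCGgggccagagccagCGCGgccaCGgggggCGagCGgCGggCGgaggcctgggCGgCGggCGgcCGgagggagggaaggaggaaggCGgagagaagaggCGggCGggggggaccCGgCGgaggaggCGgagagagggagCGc
Dnmt3b, chr2:153649199-153649448, + strand: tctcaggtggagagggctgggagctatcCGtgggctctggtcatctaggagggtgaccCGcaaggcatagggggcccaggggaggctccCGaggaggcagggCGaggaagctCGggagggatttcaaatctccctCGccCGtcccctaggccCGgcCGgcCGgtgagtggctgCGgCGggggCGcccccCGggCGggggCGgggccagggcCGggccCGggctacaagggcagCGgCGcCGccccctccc
Dnmt3l, chr10:78049592-78049841, + strand: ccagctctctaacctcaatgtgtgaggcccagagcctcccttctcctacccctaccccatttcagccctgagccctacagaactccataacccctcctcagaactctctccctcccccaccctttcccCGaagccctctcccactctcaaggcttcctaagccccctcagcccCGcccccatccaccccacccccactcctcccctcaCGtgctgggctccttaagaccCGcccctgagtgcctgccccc
Tet2, chr3:133544391-133544640, - strand: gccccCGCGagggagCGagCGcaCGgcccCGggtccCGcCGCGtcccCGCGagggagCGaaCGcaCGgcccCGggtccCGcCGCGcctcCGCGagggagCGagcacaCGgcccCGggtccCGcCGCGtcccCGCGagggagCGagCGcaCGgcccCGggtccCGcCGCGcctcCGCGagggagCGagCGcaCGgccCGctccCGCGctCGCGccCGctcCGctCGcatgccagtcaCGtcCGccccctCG

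The Uhrf1 window is shown for its match to TTTNNCGC, a motif bound by E2F factors of the cell cycle, here TTTCGCGC in capitals, 185 bases before the start.
Uhrf1, chr17:56304063-56304312, + strand: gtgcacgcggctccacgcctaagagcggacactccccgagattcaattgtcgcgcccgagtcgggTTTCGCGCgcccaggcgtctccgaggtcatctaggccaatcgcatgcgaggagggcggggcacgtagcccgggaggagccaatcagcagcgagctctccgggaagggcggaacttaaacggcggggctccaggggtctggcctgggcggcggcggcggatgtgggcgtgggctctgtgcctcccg
That motif, searched on both strands, occurred in 4.28% of the 32851 windows. Among the 8 genes it was found in both Uhrf1 windows and in 1 of the Dnmt1 windows, with 2 overlapping matches there. The TCF and LEF motif ATCAAAG, found in 3.21% of windows, and the ETS motif CCGGAAG, found in 6.91%, had no match in any window of the 8 genes. Such matches describe letters and not bound sites.

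A 2iLif library held between 15199507 and 15818758 counts, a library of FGF2/Activin between 15234243 and 15703321, and an inhibitor library between 16010904 and 24202544. The labels name the 2iLif and FGF2/Activin libraries in a different style from the inhibitor libraries, so in the 6 comparisons across styles the style and the group cannot be told apart. Spread between replicates also differed, with a biological coefficient of variation of 1.77% in FGF2/Activin, 4.52% in 2iLif and 8.9% to 11.1% in the inhibitor groups. All 15 libraries shared 1 fit, so p-values and standard errors of a comparison rest partly on the spread of other groups. With only the libraries compared in the fit, 75 of 80 values for the 8 genes kept direction and call, 3 lost a call and 2 gained one. Replicate 2 of each inhibitor group stood apart. Its counts differed from those of replicates 1 and 3 with a chi-square per degree of freedom of 9.48 to 18.3, against 2.56 to 6.51 between those. In 2iLif replicate 3 stood apart to a smaller degree, at 6.54 and 5.78 from replicates 1 and 2, against 1.32 between those. Markers of ES cells (Pou5f1, Sox2, Utf1, Fgf4, Tdgf1, Dppa5a) summed to 1473 to 2977 CPM, counts scaled to a common library total, in every library. Markers of primitive endoderm, trophoblast, mesoderm, neuroectoderm and fibroblasts summed to at most 59.2 CPM per list, but not evenly across groups. The neuroectoderm sum was 8.77 to 11.1 CPM in 2iLif, 46.95 to 51.9 in FGF2/Activin and 36.1 to 59.2 in PD032. It was 27.5 to 51.4 CPM in Aurka inh and 18.4 to 29.3 with both inhibitors. The fibroblast sum was 4.81 to 5.93 CPM in 2iLif and 18.5 to 20.3 in FGF2/Activin. Each remaining sum was at most 20.97 CPM. Single genes of these lists (Hand1, Hand2, Mesp1, Neurog2 and Col3a1) were at 0 counts in at least 1 group. Naive markers such as Klf4 and Esrrb summed to 4032 to 4073 CPM in 2iLif, 159 to 180 in FGF2/Activin, 651 to 765 in PD032, 504 to 839.7 in Aurka inh and 1848 to 1942 with both inhibitors. Formative markers such as Fgf5 and Otx2 summed to 40.7 to 41.1 CPM in 2iLif, 848 to 869 in FGF2/Activin, 535 to 569 in PD032, 287 to 326 in Aurka inh and 164 to 199 with both inhibitors. These sums moved with several of the 8 genes below, and their part in those results was not tested. In bulk RNA, fewer cells of a state and less RNA per cell cannot be told apart.

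Between FGF2/Activin and 2iLif all 8 genes differed, with 4 higher (Dnmt3a, Dnmt3b, Dnmt3l, Tet3) and 4 lower (Dnmt1, Uhrf1, Tet1, Tet2) in FGF2/Activin. A gene passed at an adjusted p under 0.05 in the quasi-likelihood test of edgeR, and by that rule 33.3% of all tested genes were higher and 32.6% lower. The share of all genes called was thus large. The median absolute log2 fold change was 2.57 over the 8 genes and 0.478 over all. Because the genes were chosen with earlier results known, such contrasts, here and below, describe the genes and are not independent evidence. Dnmt3a, Dnmt3b, Dnmt3l, Tet2 and Tet3 changed at least 4.00-fold, whereas the log2 fold change was -0.55 for Tet1, -0.42 for Uhrf1 and -0.18 for Dnmt1, the last pair smaller in size than the median over all genes. The signed median was 0.91 over the 8 genes, against -0.011 over all.

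In the combination against PD032, the 3 de novo genes and Tet3 were lower and Tet2 was higher, while Dnmt1, Uhrf1 and Tet1 did not pass. Of all genes, 20% were higher and 23.8% lower, and the median absolute log2 fold change was 0.867 for the 8 genes and 0.256 for all. The signed medians were -0.62 and 0.0101. Equal replicate numbers were taken as pairs among the inhibitor groups, a choice made from these data and not from a label. With the replicate number as a block Tet1 passed too (log2 fold change -0.32, edgeR adjusted p = 2e-06), which made 5 lower and 1 higher. Under the block 28% of all genes were higher and 28.8% lower.

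In the combination against Aurka inh all 8 genes passed, with Dnmt3a, Dnmt3b, Dnmt3l and Tet3 lower and Dnmt1, Uhrf1, Tet1 and Tet2 higher. Of all genes tested, 18.6% were higher and 16.3% lower. With the replicate block all 8 passed as well, beside 23.8% higher and 23.6% lower. The median absolute log2 fold change was 1.13 for the 8 genes and 0.218 for all, and the signed medians were -0.43 and 0.0056.

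Between PD032 and Aurka inh, Tet1, Tet2 and Tet3 were higher in PD032 and the other 5 genes did not pass, where 25.8% of all genes were higher and 19.7% lower. The count of 3 of 8 was thus no higher than the share of all genes called in either direction, 45.5%. The median absolute log2 fold change of the 8 genes, 0.283, was close to that of all genes, 0.273. Without Aurka inh replicate 1 or 2, 5 of the 8 genes passed, beside 44.6% and 42.5% of all genes in those fits. With the replicate block all 8 genes passed, 6 higher and 2 lower, beside 30.6% higher and 26.8% lower of all genes. The added calls were small: under the block the log2 fold change was 0.096 for Dnmt1, -0.21 for Dnmt3a, 0.10 for Dnmt3b, -0.36 for Dnmt3l and 0.091 for Uhrf1.

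Across naming styles the pattern against 2iLif was alike in direction in each inhibitor group, and the 3 comparisons share the 2iLif libraries. In PD032 against 2iLif 4 of the 8 genes were higher, 3 were lower and Tet1 did not pass, beside 32.1% higher and 30.9% lower of all genes. In Aurka inh against 2iLif 4 were higher and 4 lower, beside 28.9% and 29.5%. In the combination against 2iLif 4 were again higher and 4 lower, beside 23.8% and 23.8%. The genes that were higher in each of these were Dnmt3a, Dnmt3b, Dnmt3l and Tet3.

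Against FGF2/Activin, a set of comparisons that shares those 3 libraries, PD032 had 2 of the 8 genes higher (Dnmt3l, Tet2) and 3 lower (Dnmt3a, Dnmt3b, Uhrf1), beside 30% and 29% of all genes. Aurka inh had the same 2 genes higher and 5 lower, Dnmt1 alone not passing, beside 25% and 30.1%. The combination had Tet2 alone higher and 4 genes lower (Dnmt3a, Dnmt3b, Dnmt3l, Tet3), beside 33% and 33.8%. In PD032 the median absolute log2 fold change of the 8 genes, 0.344, was below that of all genes, 0.385. It was 0.694 against 0.354 in Aurka inh and 1.12 against 0.472 in the combination.

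**Figure D1:**
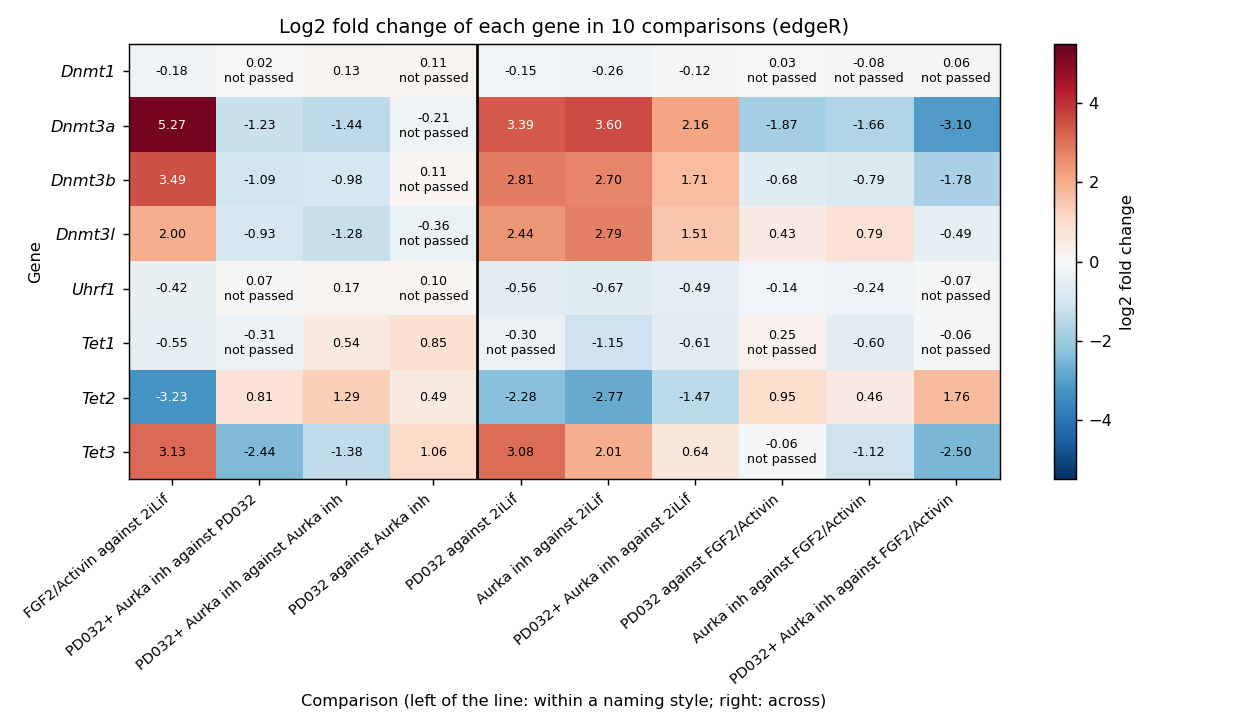
Log2 fold change of each of the 8 genes (rows) in the 10 comparisons (columns), from edgeR, with the first group over the second; red is higher and blue is lower in the first group, and "not passed" marks an adjusted p of 0.05 or more. The 4 columns left of the line compare libraries of 1 naming style, and Dnmt3a in FGF2/Activin against 2iLif holds the largest value, 5.27.

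Dnmt3a had the widest span of the 8 genes, 38.5-fold between its highest and lowest group mean. Its 3 libraries stood at 37.1, 34.8 and 36.01 CPM in 2iLif and at 1358, 1385 and 1410 CPM in FGF2/Activin. In PD032 they stood at 386, 360 and 387 CPM, in Aurka inh at 471, 356 and 483 CPM, and in the combination at 175, 136 and 172 CPM. The 2iLif libraries were thus lowest and the FGF2/Activin libraries highest, the combination lay above 2iLif and below either single inhibitor, and PD032 and Aurka inh overlapped. That pair of groups did not pass (edgeR adjusted p = 0.094) but did in 4 of 14 alternatives, among them the replicate block (log2 -0.21, edgeR adjusted p = 0.00093). The log2 fold change of FGF2/Activin over 2iLif was 5.27 ± 0.121 (SE, edgeR adjusted p = 7.68e-15). The combination had 0.426 times the level of PD032 (edgeR adjusted p = 6.95e-08) and 0.369 times that of Aurka inh (3.72e-08 in the same fit). Dnmt3a is at chr12:3806007-3914443 on the + strand (mm10, ENSMUSG00000020661) and has long and short isoforms with separate promoters, which gene counts do not separate.

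By mean RPKM (CPM per kilobase of exon), Dnmt3b was the most abundant of the 8 genes in each group but 2iLif, where Uhrf1 and Dnmt1 were above it, and in the combination it overlapped Uhrf1. Its libraries held 242, 246 and 237 CPM in 2iLif, 2742, 2704 and 2693 CPM in FGF2/Activin, and 852, 711 and 811 CPM in the combination. In PD032 they held 1782, 1544 and 1746 CPM and in Aurka inh 1659, 1429 and 1605 CPM. PD032 and Aurka inh overlapped and did not pass against each other (edgeR adjusted p = 0.206), but within each equal-numbered pair PD032 was the higher, and with the replicate block the difference passed (log2 0.10, edgeR adjusted p = 0.00474). The order of groups was near that of Dnmt3a, but the inhibitor groups came closer to FGF2/Activin: PD032 had 0.623 times its Dnmt3b level and 0.273 times its Dnmt3a level. FGF2/Activin was 11.2-fold above 2iLif (log2 3.49 ± 0.0774 SE, edgeR adjusted p = 5.36e-15). The combination had 0.468 times the level of PD032 (edgeR adjusted p = 4.12e-09) and 0.506 times that of Aurka inh (4.46e-08 in the same fit). Dnmt3b lies at chr2:153649450-153687730, + strand (ENSMUSG00000027478), next to its germline paralog Dnmt3c, which shares 9.81% of the 50-base stretches of Dnmt3b transcripts. Dnmt3c had 0 to 4 counts in every library, against 3632 or more for Dnmt3b.

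Dnmt3l ordered the groups differently from the enzymes it stimulates, since its highest means were in the single inhibitor groups and not in FGF2/Activin. Its libraries had 34.7, 36.1 and 34.5 CPM in 2iLif, 141, 139 and 141 CPM in FGF2/Activin, and 88.9, 113 and 98.3 CPM in the combination. In PD032 they had 167, 235 and 168 CPM, and in Aurka inh 206, 313 and 211 CPM. Replicate 2 was the highest library of each inhibitor group, and all inhibitor libraries exceeded those of 2iLif. FGF2/Activin was 4.00-fold above 2iLif (edgeR adjusted p = 1.45e-08). Aurka inh was 1.73-fold above FGF2/Activin (edgeR adjusted p = 0.000278) and PD032 1.35-fold above it (0.0182 in the same fit), but without PD032 replicate 2 the latter no longer passed (log2 0.25, edgeR adjusted p = 0.118). The combination had 0.526 times the level of PD032 (edgeR adjusted p = 9.11e-05) and 0.411 times that of Aurka inh (6.35e-06 in the same fit).

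Dnmt3l (chr10:78041947-78063622, + strand, ENSMUSG00000000730) shares 67 exon bases with Aire on the opposite strand. The kit marks strand, but the strand setting of the counting is not given in the sources used here, so reads in those bases could have been counted for either gene. Aire had 36 to 59 counts in 2iLif, 263 to 325 in FGF2/Activin and 399 to 993 in the inhibitor libraries, and Dnmt3l had 529 to 534, 2150 to 2214 and 1932 to 4978. Aire thus had fewer counts than Dnmt3l in each group while also being lowest in 2iLif, and its part in the Dnmt3l values was not tested.

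**Figure D2:**
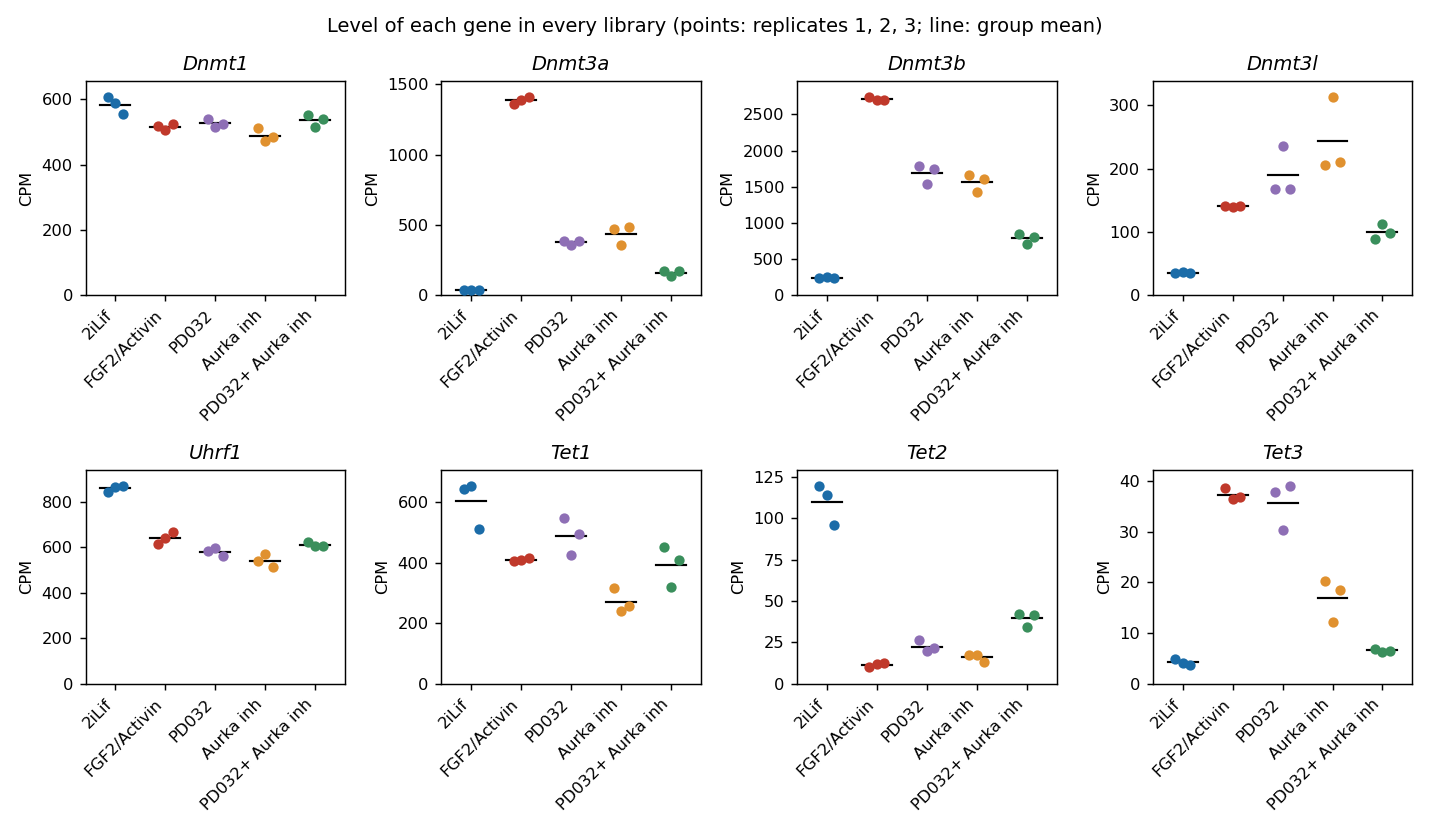
CPM of each of the 8 genes (vertical axes from 0) in the 15 libraries, as points for replicates 1, 2 and 3 from left to right with a line at the group mean. Dnmt3a and Dnmt3b run from 2iLif at the bottom to FGF2/Activin at the top, Tet2 runs the other way, and Dnmt1 stays between 472 and 607 CPM.

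The maintenance pair varied least. Uhrf1 had 843, 865 and 872 CPM in the 2iLif libraries, which was above each of the other 12 libraries, whose range was 513 to 667 CPM. Its FGF2/Activin libraries had 617, 641 and 667 CPM, those of PD032 584, 597 and 565 CPM, those of Aurka inh 542, 572 and 513 CPM, and those of the combination 622, 608 and 605 CPM. Outside 2iLif the groups lay close together and most neighbours overlapped. FGF2/Activin had 0.746 times the 2iLif level (log2 -0.42 ± 0.047 SE, edgeR adjusted p = 7.03e-07), and each inhibitor group was lower than 2iLif as well, at 0.631 to 0.711 times. The combination was 1.13-fold above Aurka inh (edgeR adjusted p = 0.00906), a call lost when only those 6 libraries were fitted (0.108 in that fit) and without Aurka inh replicate 3 (0.0583). Against PD032 it did not pass (edgeR adjusted p = 0.232). PD032 had 0.906 times the level of FGF2/Activin (edgeR adjusted p = 0.0163), which became 0.0849 without FGF2/Activin replicate 3 and 0.0718 without PD032 replicate 3. Uhrf1 lies at chr17:56303321-56323486, + strand (ENSMUSG00000001228), and the processed pseudogene Gm5648 shares 14.7% of its 50-base stretches but had 13 to 56 counts, against 9094 or more for Uhrf1.

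Dnmt1 had the narrowest span of the 8 genes, 1.19-fold between group means. It had 607, 589 and 554 CPM in 2iLif, 517, 506 and 523 CPM in FGF2/Activin, 540.4, 515 and 524 CPM in PD032, 512, 472 and 483 CPM in Aurka inh, and 552, 514 and 541 CPM with both inhibitors. The 2iLif libraries lay above the rest by a narrow margin, and the other groups overlapped in turn. The means were 583 ± 26.9 CPM (SD) in 2iLif and 515 ± 8.73 CPM in FGF2/Activin (log2 -0.18 ± 0.0476 SE, edgeR adjusted p = 0.00352). Aurka inh was lower than 2iLif (log2 -0.26, edgeR adjusted p = 0.00025), and so was PD032 (0.0128 in the same fit, and 0.0654 without 2iLif replicate 1). The call of the combination against 2iLif (edgeR adjusted p = 0.0428) was lost without replicate 1 or 2 of 2iLif or replicate 2 or 3 of the combination (0.169, 0.111, 0.15 and 0.0734 in those fits). The call of the combination against Aurka inh (edgeR adjusted p = 0.0413) was lost without replicate 2 or 3 of Aurka inh or replicate 1 or 3 of the combination (0.123, 0.117, 0.139 and 0.105). Each of these 2 calls was lost in 9 of its 13 or 14 alternatives. Dnmt1 lies at chr9:20907209-20959888 on the - strand (ENSMUSG00000004099). Genes of DNA replication, the process that maintenance methylation follows, summed to 4840 to 5053 CPM in 2iLif and 5553 to 5574 in FGF2/Activin. In the inhibitor groups they summed to 4394 to 4921 CPM. The sum was thus highest in FGF2/Activin, and the part of these genes in the Uhrf1 and Dnmt1 values was not tested.

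Tet2 ran opposite to the de novo writers between 2iLif and FGF2/Activin. It stood at 119.7, 114 and 96.1 CPM in 2iLif and at 10.3, 12.1 and 12.6 CPM in FGF2/Activin. The inhibitor libraries stood at 26.5, 19.8 and 21.5 CPM in PD032, 17.5, 17.6 and 13.3 CPM in Aurka inh, and 42.5, 34.3 and 41.9 CPM with both inhibitors. No neighbouring groups overlapped in the order 2iLif, combination, PD032, Aurka inh, FGF2/Activin. FGF2/Activin had 0.106 times the 2iLif level (log2 -3.23 ± 0.139 SE, edgeR adjusted p = 6.94e-12). The combination was 1.75-fold above PD032 (edgeR adjusted p = 7.45e-05) and 2.45-fold above Aurka inh (1.69e-06 in the same fit). PD032 was 1.40-fold above Aurka inh (edgeR adjusted p = 0.00768), which became 0.0522 without PD032 replicate 1. Aurka inh was 1.38-fold above FGF2/Activin (edgeR adjusted p = 0.0146, but 0.061 without Aurka inh replicate 1 and 0.0685 without FGF2/Activin replicate 1). Tet2 lies at chr3:133463679-133545139, - strand (ENSMUSG00000040943), and its antisense neighbour Gm42567 had at most 1 count.

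Tet3 was higher in FGF2/Activin than in 2iLif and lower in the combination than in either single inhibitor, as the de novo writers were. It was also higher in PD032 than in Aurka inh, where those writers did not pass in the fit of all 15 libraries. Its libraries had 4.94, 4.06 and 3.71 CPM in 2iLif, 38.7, 36.4 and 36.8 CPM in FGF2/Activin, and 37.8, 30.3 and 39.1 CPM in PD032. Those of Aurka inh had 20.3, 12.2 and 18.5 CPM and those of the combination 6.95, 6.37 and 6.45 CPM. FGF2/Activin and PD032 overlapped (edgeR adjusted p = 0.714), Aurka inh lay below both, and the combination lay just above 2iLif. FGF2/Activin was 8.79-fold above 2iLif (edgeR adjusted p = 1.24e-10). The combination had 0.185 times the level of PD032 (log2 -2.44 ± 0.152 SE, edgeR adjusted p = 2.8e-09) and 0.385 times that of Aurka inh (5.63e-06 in the same fit), the largest change of the 8 genes in the first of these comparisons. PD032 was 2.09-fold above Aurka inh (edgeR adjusted p = 1.28e-05). Against 2iLif the combination was 1.56-fold higher (edgeR adjusted p = 0.0127, and 0.0593 without 2iLif replicate 3). Tet3 lies at chr6:83362373-83459084 on the - strand (ENSMUSG00000034832).

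Tet1, the main TET gene of ES cells, was the most abundant of the 3 oxidases per length in each group. It had 642, 655 and 510.3 CPM in 2iLif, 407, 408 and 416 CPM in FGF2/Activin, 546, 425 and 494 CPM in PD032, 316, 240.1 and 256 CPM in Aurka inh, and 453, 319 and 409 CPM with both inhibitors. Aurka inh was the lowest group and overlapped none of the others, while 2iLif overlapped PD032, and the combination overlapped FGF2/Activin and PD032. FGF2/Activin had 0.681 times the 2iLif level (edgeR adjusted p = 0.00127). Aurka inh had 0.661 times the level of FGF2/Activin (edgeR adjusted p = 0.00105), PD032 was 1.80-fold above it (5.98e-05 in the same fit) and the combination 1.45-fold above it (0.00399 in the same fit). The combination against PD032 gave a log2 fold change of -0.31 (edgeR adjusted p = 0.062), which passed with the replicate block, as given above, and in 6 of 14 alternatives in all, among them the fits without PD032 replicate 2 or replicate 1 of the combination (0.0223 and 0.0218). PD032 against 2iLif gave -0.30 (edgeR adjusted p = 0.0507), a value at the threshold that passed in 8 of 13 alternatives, with an edgeR or DESeq2 adjusted p between 3.49e-06 and 0.181 over them. Among these were RLE factors (0.0423), DESeq2 (0.0345), the fit of only the libraries compared (0.0352), and the fits without 2iLif replicate 3 or PD032 replicate 1 (0.0203 and 0.0271). PD032 against FGF2/Activin gave 0.25 (edgeR adjusted p = 0.104), which passed in 5 of 13 alternatives, among them those without PD032 replicate 2 (0.0375) and with only the libraries compared (0.0181). Tet1 lies at chr10:62804570-62908996 on the - strand (ENSMUSG00000047146).

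The balance within each family is given per length, as a ratio of RPKM values. Dnmt3b exceeded Dnmt3a 21.3- to 23.0-fold in the 2iLif libraries and 6.22- to 6.58-fold in those of FGF2/Activin. The range was 14.0 to 15.1 in PD032, 10.8 to 13.1 in Aurka inh and 15.4 to 17.02 with both inhibitors. Dnmt3b was thus ahead in every library, least so in FGF2/Activin, and no library of FGF2/Activin reached the range of another group. The size of the ratio depended on the length used. With the longest coding transcript in place of all exons, its mean fell from 21.9 to 15.06 in 2iLif and from 6.39 to 4.395 in FGF2/Activin. Dnmt3l stood at 0.245 to 0.251 of Dnmt3b in 2iLif and at 0.0878 to 0.0897 in FGF2/Activin. The inhibitor libraries spread from 0.160 to 0.375, with replicate 2 highest in each group. By the longest coding transcript the mean of Dnmt3l over Dnmt3b rose from 0.248 to 0.345 in 2iLif and from 0.0885 to 0.123 in FGF2/Activin. The sum of the 3 de novo genes averaged 61.2 ± 1.16 RPKM (SD, n = 3) in 2iLif, 662 ± 3.69 in FGF2/Activin, 417 ± 13.2 in PD032, 414 ± 7.96 in Aurka inh and 198 ± 11.5 with both inhibitors. In 2iLif that sum was below that of Uhrf1 and Dnmt1, 281 ± 1.73 RPKM, and in FGF2/Activin, PD032 and Aurka inh it was above it. The combination had 198 against 216 ± 4.33 RPKM for the maintenance pair.

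Among the oxidases, Tet1 exceeded Tet2 5.79- to 6.27-fold per length in 2iLif, 36.05- to 42.9-fold in FGF2/Activin, 22.5- to 25.1-fold in PD032, 14.9- to 20.99-fold in Aurka inh and 10.2- to 11.7-fold in the combination. With the length of the longest coding transcript in place of all exons, the means fell from 5.97 to 3.496 in 2iLif and from 38.5 to 22.6 in FGF2/Activin, and the order of the groups stayed. Tet2 exceeded Tet3 23.99- to 27.8-fold in 2iLif and 5.33- to 6.42-fold in the combination. It was below Tet3 in FGF2/Activin, at 0.265 to 0.339, and in PD032, at 0.544 to 0.695, and on both sides of it in Aurka inh, at 0.712 to 1.42. The second most abundant oxidase per length was therefore Tet2 in 2iLif and the combination, and Tet3 in FGF2/Activin and PD032. By the longest coding transcript the mean of Tet2 over Tet3 rose from 25.8 to 30.96 in 2iLif and from 0.311 to 0.373 in FGF2/Activin. The summed TET level averaged 45.7 ± 5.89 RPKM (SD, n = 3) in 2iLif, 29.4 ± 0.337 in FGF2/Activin, 35.1 ± 4.37 in PD032, 19.5 ± 2.85 in Aurka inh and 28.2 ± 4.69 with both inhibitors, so Aurka inh had the lowest sum.

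**Figure D3:**
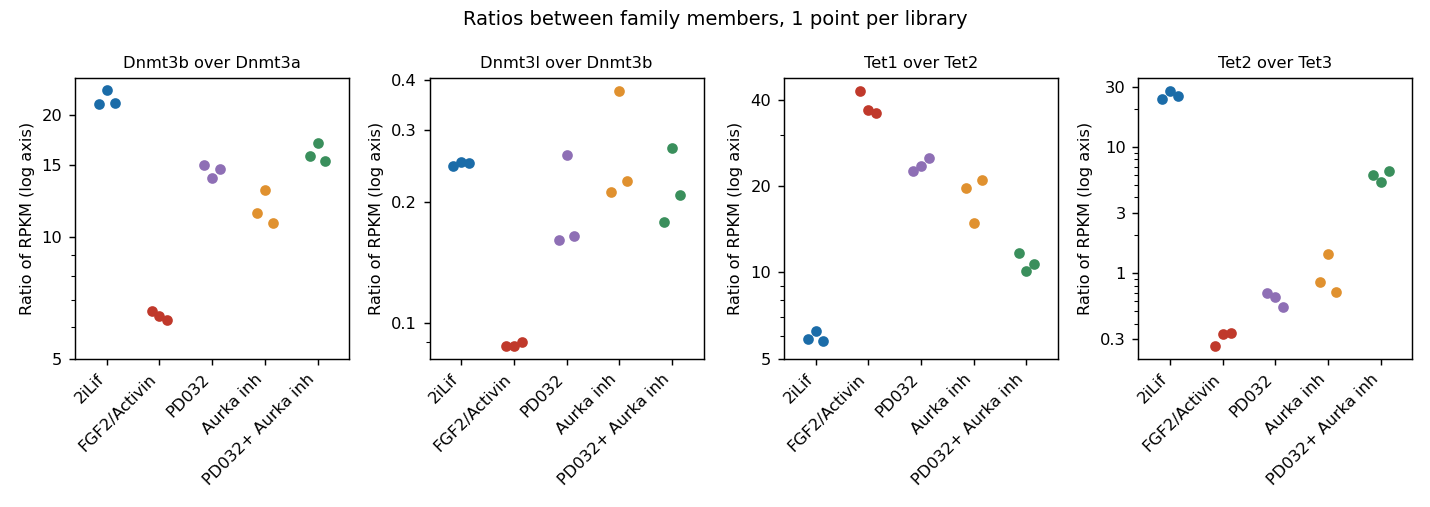
Ratios of RPKM between members of a family (log axes), 1 point per library, for Dnmt3b over Dnmt3a, Dnmt3l over Dnmt3b, Tet1 over Tet2 and Tet2 over Tet3. Tet2 over Tet3 falls from 23.99 to 27.8 in 2iLif to 0.265 to 0.339 in FGF2/Activin, with the combination between them at 5.33 to 6.42.

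Replicate 2 stood apart in the inhibitor groups. On the log2 CPM scale its Dnmt3l value was above the mean of replicates 1 and 3 by 0.49 in PD032, 0.59 in Aurka inh and 0.27 with both inhibitors. Its Dnmt3b values lay below by -0.19, -0.19 and -0.23, and its Tet1 values by -0.29, -0.25 and -0.43. Dnmt3l and the catalytic writer Dnmt3b thus deviated in opposite directions in these 3 libraries. In 2iLif and FGF2/Activin the Dnmt3l value of replicate 2 deviated by 0.063 and -0.022. With the 3 inhibitor libraries numbered 2 left out, 6 of the 8 genes passed in the combination against PD032, beside 50.8% of all genes. Then 8 passed in the combination against Aurka inh, beside 41.3%, and in PD032 against Aurka inh 7 passed (5 higher, 2 lower), beside 51.1%. Against 2iLif the counts were then 8 for PD032, 8 for Aurka inh and 7 for the combination, beside 69.9%, 65% and 56.4% of all genes. Against FGF2/Activin they were 6, 7 and 5, beside 65.8%, 60.3% and 71.9%, and the last of these is below the share over all genes.

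**Figure D4:**
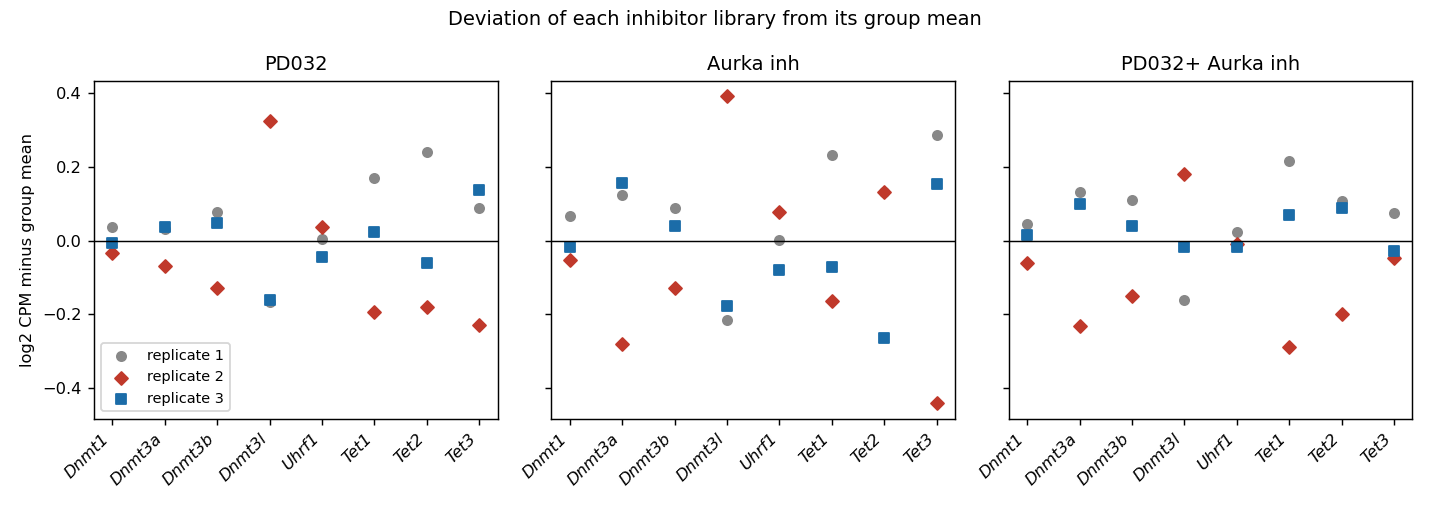
Deviation of each inhibitor library from its group mean (log2 CPM) for the 8 genes, in PD032, Aurka inh and the combination, with circles, diamonds and squares for replicates 1, 2 and 3 (the circle of Tet2 in Aurka inh lies under the diamond). The diamonds of Dnmt3l are above 0 and those of Dnmt3b and Tet1 below 0 in each group.

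Other genes of the pathway were described in 10 lists of 93 genes, of which 91 were tested. Between FGF2/Activin and 2iLif, both regulators of methylation in ES cells were lower. PRDM14, a repressor of Dnmt3 genes, had its transcript at 40.4 ± 3.07 CPM (SD, n = 3) in 2iLif, 0.384 ± 0.254 in FGF2/Activin, 6.67 ± 0.605 in PD032, 1.89 ± 1.15 in Aurka inh and 19.8 ± 0.51 with both inhibitors. The order of its group means was the reverse of that of Dnmt3a, although PD032 and Aurka inh overlapped for Dnmt3a. It was not the reverse of that of Dnmt3b, whose mean was higher in PD032 than in Aurka inh. Nor was it the reverse of that of Dnmt3l, which was higher in both single inhibitor groups than in FGF2/Activin. The part of Prdm14 in the values of these genes was not tested. In the combination Prdm14 was 2.96-fold above PD032 (edgeR adjusted p = 8.43e-06) and 10.8-fold above Aurka inh (3.91e-08 in the same fit). Dppa3, whose product keeps UHRF1 from chromatin, had 4.01 ± 0.377 CPM in 2iLif and 2.00 ± 0.46 CPM in FGF2/Activin (edgeR adjusted p = 0.00576), and 11.6 to 14.8 CPM on average in the inhibitor groups.

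Of the maintenance partners, 3 of 6 were higher and 2 lower in FGF2/Activin against 2iLif, beside 33.3% and 32.6% of all genes, with a median log2 fold change of 0.067. Hells, a remodelling factor needed for methylation, rose from 490.0 ± 27.0 to 803 ± 34.2 CPM (edgeR adjusted p = 4.73e-09). In the combination against PD032, 5 of 6 were higher and 1 lower (median 0.18), beside 20% and 23.8% of all genes. PD032 against Aurka inh had 0 higher and 3 lower (median -0.18), beside 25.8% and 19.7%. The combination against Aurka inh had 2 higher and 2 lower (median -0.025), beside 18.6% and 16.3%. Uhrf2, the paralog of Uhrf1, had its own pattern: its means were 51.3 ± 1.39 CPM in 2iLif, 50.5 ± 1.46 in FGF2/Activin, 54.3 ± 1.78 in PD032, 115 ± 8.3 in Aurka inh and 138 ± 8.79 with both inhibitors. Both groups with the Aurora inhibitor were above the rest, by 2.54-fold for the combination over PD032 (edgeR adjusted p = 7.56e-11), and PD032 had 0.474 times the level of Aurka inh (9.02e-10 in the same fit).

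Among 8 genes for histone marks that steer the DNMT3 enzymes, 3 were higher and 4 lower in FGF2/Activin against 2iLif (median log2 fold change -0.15), beside 33.3% and 32.6% of all genes. Between the combination and PD032, 3 were higher and 2 lower in the former (median 0.045), beside 20% and 23.8%. Each of these counts lay above its share over all genes, in a list of only 8 genes, and the difference was not tested. Zfp57, whose product protects imprints, had 479 ± 30.6 CPM in 2iLif, 117 ± 3.51 in FGF2/Activin, 309 ± 17.6 in PD032, 274 ± 50.04 in Aurka inh and 474 ± 6.79 with both inhibitors. It fell in FGF2/Activin (edgeR adjusted p = 1.91e-11) and was 1.54-fold higher in the combination than in PD032 (3.93e-05 in the same fit).

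On the erasing side were 8 TET partners and suppliers of cofactor. Of these, 3 were higher and 4 lower in FGF2/Activin against 2iLif (median log2 fold change -0.36), beside 33.3% and 32.6% of all genes. In PD032 against Aurka inh 5 were higher and 2 lower (median 0.29), beside 25.8% and 19.7%. The combination had 2 higher and 4 lower against PD032 (median -0.26), beside 20% and 23.8%. Against Aurka inh it had 3 higher and 1 lower (median 0.069), beside 18.6% and 16.3%. Idh2, a mitochondrial isocitrate dehydrogenase, had 152 ± 6.21 CPM in 2iLif, 73.4 ± 2.08 in FGF2/Activin, 152 ± 12.6 in PD032, 69.6 ± 11.3 in Aurka inh and 137 ± 12.2 with both inhibitors. As for Tet1, Aurka inh was below PD032, where Idh2 was 2.19-fold higher (edgeR adjusted p = 8.15e-08). Of 12 genes for base excision and repair of oxidised methylcytosine, 4 were higher and 6 lower in FGF2/Activin against 2iLif (median -0.15), beside 33.3% and 32.6% of all genes. Between the combination and PD032, 2 were higher and 5 lower in the former (median -0.053), beside 20% and 23.8%. Gadd45g, a stress and growth arrest gene linked to demethylation, had 0.615 ± 0.227 CPM in 2iLif, 26.1 ± 0.917 in FGF2/Activin, 49.6 ± 1.7 in PD032, 16.6 ± 3.86 in Aurka inh and 5.57 ± 0.276 with both inhibitors. The order of its group means was that of Tet3, except that PD032 was above FGF2/Activin.

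Of the 7 methyl-CpG readers, 2 were higher and 5 lower in FGF2/Activin against 2iLif (median log2 fold change -0.50), where 33.3% of all genes were higher and 32.6% lower. They were led by Zbtb38, which fell from 73.8 ± 5.72 to 35.9 ± 1.55 CPM (edgeR adjusted p = 5.67e-09). Of the 10 genes of methyl donor supply, 2 were higher and 2 lower there (median 0.055), below those shares. Ahcy, which clears S-adenosylhomocysteine, had 42.4 ± 2.78 CPM in PD032, against 68.5 ± 2.67 in the combination (edgeR adjusted p = 1.17e-07) and 67.2 ± 2.86 in Aurka inh (1.98e-07 in the same fit). Of the 12 germline genes whose promoters are known to be methylated in somatic cells, 10 were tested, and 8 of them were higher and 0 lower in FGF2/Activin against 2iLif (median 1.44), beside the same 33.3% and 32.6%. In the combination against PD032, 0 were higher and 5 lower (median -0.42), beside 20% and 23.8% of all genes, and in the combination against Aurka inh 0 were higher and 3 lower (median -0.30), beside 18.6% and 16.3%. Mael, a gene of the germline piRNA pathway, had 3.16 ± 0.346 CPM in 2iLif, 22.7 ± 0.748 in FGF2/Activin, 10.9 ± 1.63 in PD032, 9.32 ± 1.59 in Aurka inh and 3.89 ± 0.218 with both inhibitors, so like Dnmt3b it was highest in FGF2/Activin and lowest in 2iLif.

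Of 16 DNA replication genes, 10 were higher and 2 lower in FGF2/Activin against 2iLif (median log2 fold change 0.17), and 0 were higher and 9 lower in PD032 against Aurka inh (median -0.14). Of 12 genes of G2 and M phase, 5 were higher and 3 lower in the first comparison (median 0.05) and 1 was higher and 2 lower in the second (median -0.033). In the combination against PD032 the counts were 6 higher and 2 lower for replication (median 0.099) and 2 higher and 1 lower for G2 and M phase (median -0.033). Of all genes, 33.3% were higher and 32.6% lower in the first of these comparisons, 25.8% and 19.7% in the second, and 20% and 23.8% in the third, with medians of -0.011, 0.0224 and 0.0101. The part of these genes in the values of Dnmt1 and Uhrf1 was not tested.

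The genes with the most similar profile were found by the root mean square difference of log2 CPM, each gene centred on its own mean, over the 15 libraries and 8668 other genes. They are named as a description, without a test, for the 6 members whose group means span at least 1 on the log2 CPM scale. For Dnmt3b they were Prdx6 (0.118), Esrp1 (0.154) and Rhobtb3 (0.212), and Prdx6 had mean levels of 43.9 CPM in 2iLif, 435 in FGF2/Activin, 319 in PD032, 286 in Aurka inh and 124 with both inhibitors. For Dnmt3a they were Cldn6 (0.249), which encodes a tight junction protein, Grhl2 (0.395), an epithelial transcription factor, and Skil (0.412), a SMAD corepressor. For Dnmt3l they were Sh3bgrl (0.295), Icosl (0.346) and Ddit4 (0.401). Icosl lies downstream of Dnmt3l on the same strand, at chr10:78069302-78083913, 5680 bases past its end, and had means of 2.01 CPM in 2iLif, 11.2 in FGF2/Activin, 15.7 in PD032, 21.1 in Aurka inh and 10.4 with both inhibitors. Like Dnmt3l, it was higher in Aurka inh than in FGF2/Activin.

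For the oxidases, the nearest to Tet1 were Cic (0.16), a repressor regulated by ERK, Trak1 (0.169) and Usp24 (0.175). The nearest to Tet2 were Rab11fip5 (0.239), Klf5 (0.24), a naive pluripotency factor, and Fblim1 (0.264). Klf5 had means of 167 CPM in 2iLif, 27.3 in FGF2/Activin, 44.2 in PD032, 36.1 in Aurka inh and 71.4 with both inhibitors, the same order of groups as Tet2. Near Tet3 were Sort1 (0.25) and Pde3b (0.282). Sort1 had means of 7.87 CPM in 2iLif, 88.4 in FGF2/Activin, 97.3 in PD032, 37.2 in Aurka inh and 16.2 with both inhibitors.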

How the data were processed

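The deposited table held whole-number counts per gene for 15 libraries. Per the submitters' processing notes, the authors aligned reads to mm10 with STAR and used DESeq2. Not given in the sources used here are versions, the counting tool, the annotation and its strand setting. A deposited table of normalized values was not used. Identifiers were matched to GENCODE M21, which named 49326 of 49585 genes and gave coordinates and exon lengths.

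All 15 libraries were fitted in 1 quasi-likelihood model with a term per group (edgeR 4.0.16 in R 4.3.3, limma 3.58.1), with TMM scaling, and filterByExpr kept 15223 genes. Benjamini-Hochberg adjustment ran over all of them within each of 10 comparisons. CPM are counts over TMM-scaled totals, log2 CPM used a prior count of 2, and RPKM divides CPM by kilobases of merged exons. Standard errors come from the fold change and its F statistic. DESeq2 1.42.0 was an alternative, as were other scalings, no filter, fits of fewer libraries, the replicate block and leaving out libraries.

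Equal replicate numbers were checked for pairing by correlating deviations from group means across genes, which are not independent replicates. Among the inhibitor groups r lay between 0.17 and 0.483 in every same-numbered pair, between FGF2/Activin and 2iLif between -0.026 and 0.00713, and across naming styles between -0.0448 and 0.0654, so the numbers were taken as pairs among the inhibitor groups alone. No label states such pairs, and unequal numbers were not correlated. In each pair of inhibitor groups r was highest for replicate 2 (0.407 to 0.483), the replicate that stood apart. Calls made only under the block rest on this choice. No 2 replicates agreed within sampling noise (chi-square per degree of freedom 1.23 to 18.3).

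The members and lists were chosen with earlier results of these data known. All members were named, and from each other list up to 2 genes per comparison with the largest change among those that passed with a mean of at least 10 CPM in the higher group. Similar genes were the 3 nearest with a mean of at least 10 CPM, of which 1 is not reported here. The tests were run on simulated data with known changes first. Copies of the members were sought as exact 50-base stretches shared by annotated transcripts, and those sharing at least 1% were kept.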

Additional observations from a re-analysis of the deposited data

How the results depend on the processing

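Over single genes, 1056 values were recomputed under the alternatives, of which 979 kept both direction and call, 32 lost a call, 40 gained one and 5 changed direction without being called. The count for PD032 against Aurka inh was the least stable: 3 genes passed, beside 45.5% of all genes, against 5 with library size alone (45.6%), 5 without a filter on low counts (24.1%), 8 with the replicate block (57.3%), 7 with all 3 inhibitor libraries numbered 2 left out (51.1%), and 2 to 5 when leaving out each of its replicates in turn. The count was 5 without Aurka inh replicate 1 or 2 (44.6% and 42.5%), and 2 without PD032 replicate 1 (38.7%). In the other 9 comparisons the count of passing genes, and in all 10 the count over all genes, stayed within 1.5 times under every setting run. The replicate block gave 6 genes in the combination against PD032, beside 56.8% of all genes, and 8 in the combination against Aurka inh, beside 47.5%. Where the numbers do not pair the libraries, the block took away the calls of Dnmt1 in PD032 and in the combination against 2iLif (edgeR adjusted p = 0.081 and 0.121) and added Tet1 in PD032 against 2iLif (0.0132) and against FGF2/Activin (0.0153). The changes of direction were all in uncalled values: Dnmt1 in the combination against PD032 had a log2 fold change of -0.020 with library size alone, Tet1 in the combination against FGF2/Activin 0.072 without the 3 libraries numbered 2 (-0.17 to 0.072 when leaving out single replicates, the highest without replicate 2 of the combination), and Tet3 in PD032 against FGF2/Activin 0.043 without those 3 (-0.13 to 0.042, the highest without PD032 replicate 2). The cause was not tested. Most lost calls were small changes of Dnmt1 and Uhrf1. The fits of 9 inhibitor libraries without a block, of libraries without those numbered 2 and the transcript lengths were chosen after seeing the data. Scaling moved the median of all genes by at most 0.0736 (log2).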

Other observations

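A gene of the germline list, Dazl, chosen here after its values were seen, moved with replicate 2 of the inhibitor groups as Dnmt3l did. It had 7.54, 19.8 and 8.36 CPM in PD032, 8.37, 14.2 and 7.85 CPM in Aurka inh, and 11.5, 29.4 and 13.0 CPM with both inhibitors, so replicate 2 was highest in each. In 2iLif it had 4.68, 3.52 and 4.75 CPM, and in FGF2/Activin 7.73, 8.49 and 7.92 CPM. Dazl encodes an RNA-binding protein of germ cells. It did not pass in the combination against PD032 (edgeR adjusted p = 0.186). Other genes of the germline list were mixed. Replicate 2 was likewise the highest of each inhibitor group for Hormad1, Stk31 and Tex19.1, but the lowest of each for Sycp1 and Ddx4. In PD032, Hormad1 had 13.2, 23.5 and 15.5 CPM and Sycp1 had 7.04, 3.92 and 6.39 CPM.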
